A study of Mus musculus with 47 samples.

Results

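RNA of 9 enzymes of pyrimidine and deoxynucleotide synthesis was followed in mouse B lymphoma cells before and after treatment with Adriamycin (ADR, doxorubicin), a drug that damages DNA. The genes were Dut, Tk1, Tyms, Rrm1, Rrm2, Rrm2b, Dck, Umps and Cad. A probe set belonged to a gene when that symbol alone stood in the platform annotation, which gave 27 of the 45101 probe sets on the array. The brightest probe set over all arrays stood for each gene, so that 9 of 18194 genes were described, and the other probe sets served as a check. In the senescence-competent (WT) lymphomas RNA of 8 of the 9 genes was lower after ADR, led by Dut and Tk1. Over all genes 14.1% were lower there. Rrm2b, the p53-driven ribonucleotide reductase subunit, did not rise with the p53 targets and was slightly lower. In lymphomas without Suv39h1 none of the 9 passed the test, where only 0.011% of all genes, 2 of 18194, passed.

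All cultures were primary lymphoma cells from lymph nodes of Eµ-myc mice, in which the immunoglobulin enhancer drives Myc in the B lineage. All carried a retroviral Bcl2, which blocks apoptosis, had been selected with puromycin for 48 h, and grew on a feeder layer of NIH 3T3 cells, a mouse fibroblast line, irradiated with gamma rays at 20 Gy. The 47 arrays fell into 7 groups. Suv39h1 wild-type lymphomas (WT) were measured untreated (native, n = 14) and after 0.05 µg/ml ADR for 5 days (n = 14). Lymphomas labelled Suv39h1-, which lack this H3K9 methyltransferase, were measured in the same 2 states (n = 5 each). Suv39h1- cultures with an added Suv39h1ER, a fusion whose activity needs 4-hydroxytamoxifen (4OHT), were measured native, with ADR alone and with ADR plus 4OHT (n = 3 each). The submitters label the WT ADR and Suv39h1ER ADR 4OHT arrays senescent and all others non-senescent. The ages of the mice are not given in the sources used here.

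Deoxynucleotides are the building blocks of DNA, and dividing cells make them on demand in S phase. Ribonucleotide reductase turns ribonucleotides into deoxynucleotides. Its large subunit is Rrm1, and its small subunit is either Rrm2, which cycles with S phase, or Rrm2b (p53R2), which p53 induces and which also serves resting and damaged cells. Dut removes dUTP and supplies dUMP, Tyms methylates dUMP to dTMP, and Tk1 makes dTMP from salvaged thymidine. Dck salvages deoxycytidine and other deoxynucleosides. Cad carries out the first steps of pyrimidine synthesis and Umps the last ones that lead to UMP. Several of these genes are known E2F targets, and Cad and others are known Myc targets.

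Levels are log2 values that the authors made by RMA, and a change is the treated minus the native level of the same culture. Array medians ran from 4.07 to 4.43. The lowest was that of Suv39h1- 1032 under ADR, and the next lowest was 4.32. The B cell list had a median level of 9.04 in native WT cultures and the T cell list 4.77. After ADR the B cell list stood at a median of 8.45 in WT, with 5 of 13 genes called lower, 0 higher and a mean list change of -0.49 ± 0.57 (SD, n = 14), beside -0.02 ± 0.48 (n = 5) in Suv39h1-. The part of this in the changes of the 9 genes was not tested. Fibroblast markers rose after ADR in 25 of 27 measured genes in WT, with a mean list change of 1.90 ± 1.35 (SD, n = 14), beside 0.21 ± 0.28 (n = 5) in Suv39h1-, 1.14 ± 0.59 (n = 3) in Suv39h1ER under ADR and 0.36 ± 0.30 (n = 3) with 4OHT. Macrophage markers rose in 11 of 16 genes in WT, with a mean list change of 1.34 ± 0.77 (n = 14), beside 0.14 ± 0.33 (n = 5) in Suv39h1-, 1.14 ± 0.90 (n = 3) in Suv39h1ER under ADR and 0.78 ± 0.12 (n = 3) with 4OHT. Neutrophil markers changed by 0.83, 0.18, 1.02 and 0.81 on average in the same order. The 3′ minus 5′ difference of the Gapdh control probe sets, a sign of RNA quality, had a median of 0.11 and a highest value of 0.91 in WT ADR arrays, beside 0.10 and 0.17 in native WT arrays. For the actin control the medians were 0.51 and 0.61. In Suv39h1- the Gapdh medians were 0.24 native and 0.30 under ADR and the actin medians 0.82 and 0.86. In Suv39h1ER the Gapdh medians were 0.36 native, 0.30 under ADR and 0.36 with 4OHT. The actin medians there were 1.04, 0.61 and 0.90. RNA quality thus differed between genotypes too, and its part in the comparisons of genotypes was not tested. Because an array reads a whole culture, fewer lymphoma cells and less RNA per cell cannot be told apart.

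Since most of these genes moved together in WT cells, the DNA around their start sites was searched for motifs of cell cycle and Myc control. RefSeq (GRCm38.p6) gave a promoter window of 250 bases before to 50 after the start for Dut, Tk1, Tyms, Rrm1, Rrm2, Dck, Umps and Cad, and none was printed for Rrm2b. The table holds 1 start per gene, and for Dut, Tk1, Tyms and Cad it lies 267, 73, 20 and 160 bases inside the annotated gene. The last 120 bases before the start are shown for the 4 genes whose start is the outer end of the gene. They are the large and the cycling small reductase subunit, the deoxycytidine kinase and the UMP synthase, written 5′ to 3′ on the gene's strand with motif matches in capitals.
Rrm1: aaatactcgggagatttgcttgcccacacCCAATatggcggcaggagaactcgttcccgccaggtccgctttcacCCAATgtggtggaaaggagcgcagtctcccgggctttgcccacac
Rrm2: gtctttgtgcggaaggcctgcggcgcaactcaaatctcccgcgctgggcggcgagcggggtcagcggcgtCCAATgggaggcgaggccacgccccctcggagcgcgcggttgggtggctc
Dck: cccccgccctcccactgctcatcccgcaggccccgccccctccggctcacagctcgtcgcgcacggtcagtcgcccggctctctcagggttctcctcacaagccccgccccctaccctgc
Umps: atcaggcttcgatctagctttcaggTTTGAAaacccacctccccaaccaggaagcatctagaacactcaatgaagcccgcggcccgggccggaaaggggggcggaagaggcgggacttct

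The Rrm1 stretch lies at chr7:102441575-102441694 and the Rrm2 stretch at chr12:24708134-24708253, both on the plus strand. The Dck stretch lies at chr5:88764893-88765012 on the plus strand and the Umps stretch at chr16:33967039-33967158 on the minus strand. The CCAAT box (CCAAT, searched on both strands like the others) was found in Rrm1, at positions -91 and -45 from the start, and in Rrm2, at -50. It occurred in 2 of the 8 windows and in 37.4% of 32851 promoter windows of the same length. The CHR-like motif TTTGAA was found in Umps at position -95 and, outside the stretch shown, in Dck at -245, and occurred in 17.9% of all windows. The E2F-like motif TTTNNCGC and the E-box CACGTG were found in the Tyms window alone, at position 42, after the start, and at -61. They occurred in 5.17% and 7.15% of all windows. These matches are descriptions of letters and were not tested as sites.

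The first comparison asked how the enzymes respond to ADR in lymphomas that can enter senescence. Of the 9 genes 8 were lower and 0 higher, at a Benjamini-Hochberg adjusted p under 0.05 over all genes (limma). Over all 18194 genes 14.1% were lower and 16.1% higher. The median change of the 9 genes was -1.15, beside 0.00 over all genes. By change, Dut was the 43rd lowest and Tk1 the 57th lowest of the 18194 genes.

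**Figure D1:**
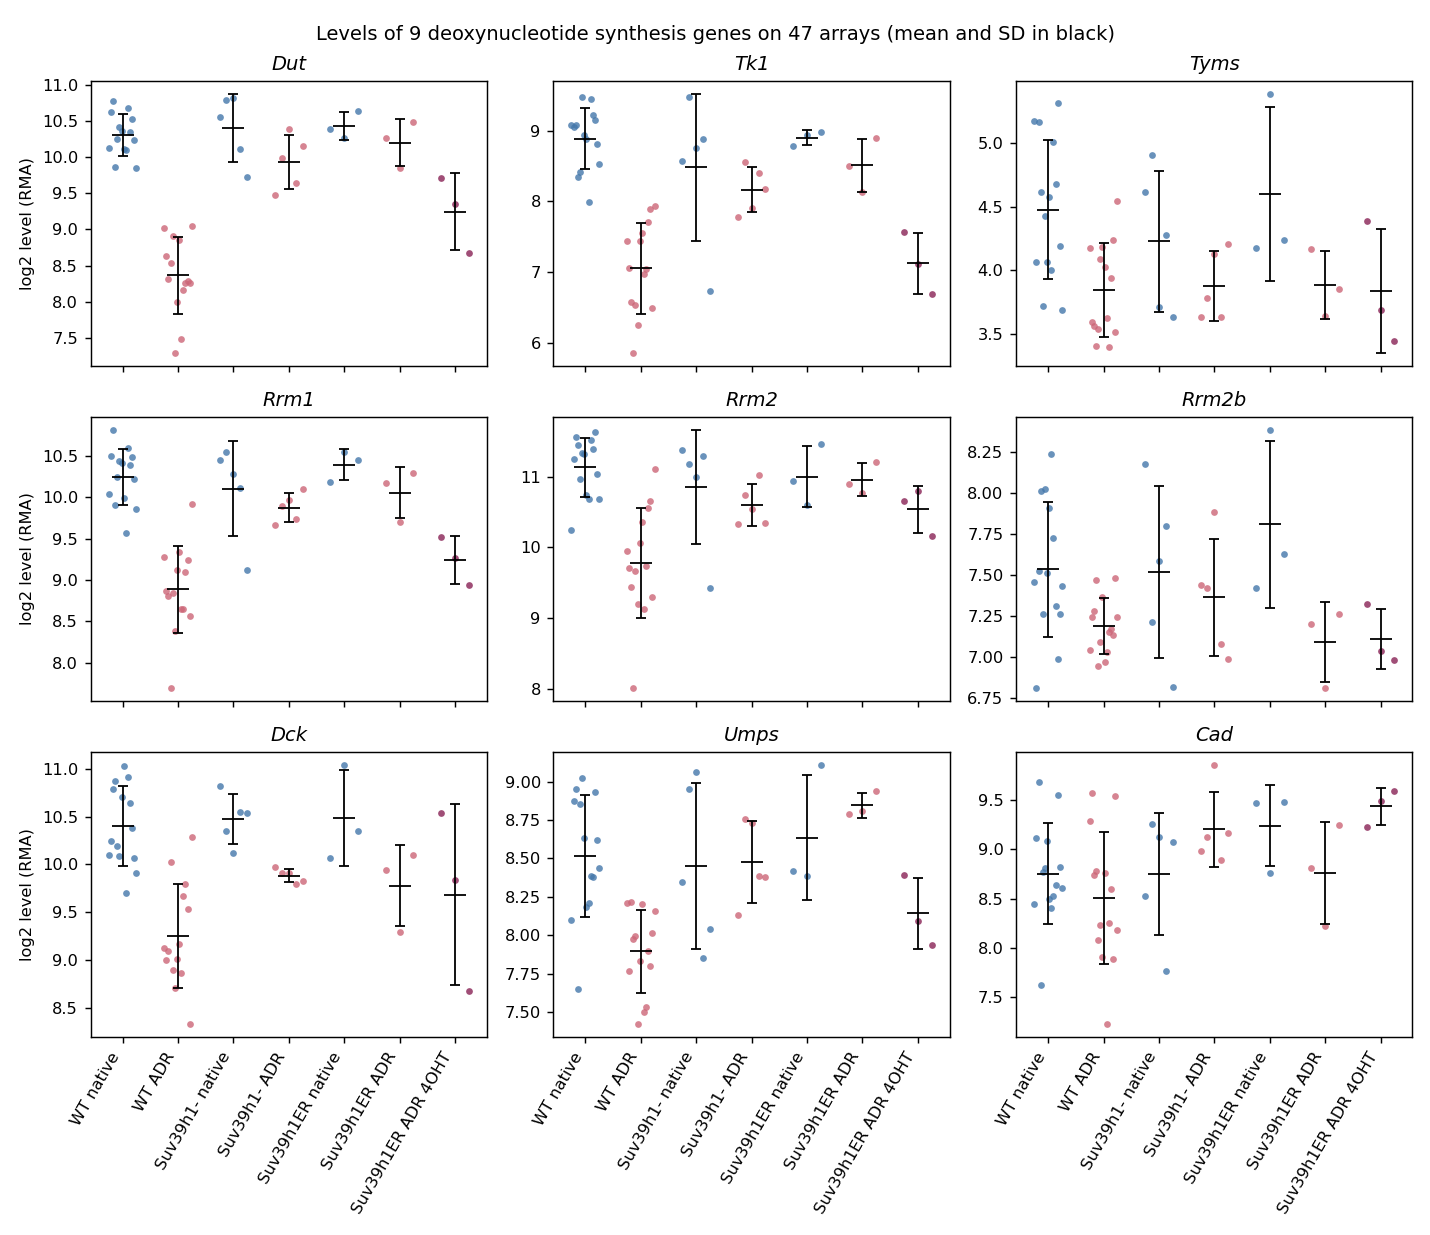
Log2 RMA level (vertical axis) of each of the 9 genes on all 47 arrays, by group; each point is 1 array, and the black mark and bars are the mean and SD. In WT the Dut and Tk1 points of the native and ADR arrays do not overlap, while those of Cad do; levels of different genes come from different probe sets and cannot be set against each other.

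Dut and Tk1, which act in the supply of thymidine nucleotides, gave the largest falls of the 9 genes. Dut ran from 9.84 to 10.78 with a median of 10.31 in native WT cultures, and from 7.29 to 9.04 with a median of 8.30 under ADR. The groups did not overlap. Dut changed by -1.95 (SE 0.16, adjusted p = 1.37e-08) and was lower in 14 of 14 lymphomas. Its other probe set was at -1.35 and was called too.

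Tk1 ran from 7.99 to 9.47 (median 8.99) in native WT cultures and from 5.87 to 7.94 (median 7.05) under ADR. Here too the groups did not overlap. Tk1 changed by -1.82 (SE 0.19, adjusted p = 1.45e-07) and was lower in 14 of 14 lymphomas. Its change was smallest in lymphoma 9584, at -0.59, and largest in 3769, at -3.21.

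Tyms was dim on its brightest probe set, from 3.69 to 5.31 (median 4.50) in native and from 3.40 to 4.55 (median 3.78) in ADR cultures, and the groups overlapped. It changed by -0.63 (SE 0.18, adjusted p = 0.00874) and was lower in 12 of 14 lymphomas. Its other 3 probe sets were dimmer still, with changes of -0.12, -0.11 and -0.06, and were not called. The Tyms call therefore rests on 1 dim probe set.

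Dck, the salvage kinase, ran from 9.70 to 11.03 (median 10.31) in native WT cultures and from 8.33 to 10.29 (median 9.11) under ADR. The ranges overlapped, through lymphoma 9584, whose change was 0.37. Dck changed by -1.15 (SE 0.17, adjusted p = 8.61e-06) and was lower in the 13 other lymphomas, and all 3 of its probe sets were called lower.

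The reductase subunits Rrm1 and Rrm2 fell by like amounts. Rrm1 ran from 9.57 to 10.82 (median 10.32) in native WT cultures and from 7.69 to 9.92 (median 8.85) under ADR. It changed by -1.36 (SE 0.16, adjusted p = 5.85e-07) and was lower in 13 of 14 lymphomas. The large subunit was thus reduced in all lymphomas but 9584, where the change was 0.06. Rrm2 ran from 10.25 to 11.63 (median 11.28) in native and from 8.01 to 11.11 (median 9.72) in ADR cultures. It changed by -1.35 (SE 0.21, adjusted p = 2.35e-05) and was lower in 13 of 14 lymphomas. The Rrm2 change varied most of the 9 genes among lymphomas, from -3.45 in 2949 to 0.42 in 9584. All 3 probe sets of each subunit were called lower.

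Rrm2b stood between 6.81 and 8.24 (median 7.48) in native WT cultures and between 6.94 and 7.48 (median 7.16) under ADR, so that the ADR levels lay within the native range. It changed by -0.35 (SE 0.13, adjusted p = 0.0427) and was lower in 11 of 14 lymphomas. The 4 Rrm2b probe sets ran from -0.51 to -0.27, and in a fit over all probe sets 1 of them, a dim one, was called, while the brightest was at adjusted p = 0.0513. The call is a narrow one: it was lost without any 1 of 8 lymphomas (1467, 2581, 2949, 3594, 3769, 5043, 5560 or 5766), with adjusted p up to 0.107. It was also lost with lymphomas of alike arrays averaged (-0.29, adjusted p = 0.163).

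The enzymes of UMP synthesis moved less than the thymidylate and reductase enzymes other than Tyms and Rrm2b. Umps ran from 7.65 to 9.02 (median 8.53) in native WT cultures and from 7.42 to 8.21 (median 7.94) under ADR, with overlap. It changed by -0.62 (SE 0.12, adjusted p = 3.79e-04) and was lower in 11 of 14 lymphomas. Cad ran from 7.62 to 9.68 (median 8.71) in native and from 7.22 to 9.57 (median 8.42) in ADR cultures. It was not called, at -0.25 (95% interval -0.63 to 0.13, adjusted p = 0.357), and was lower in 9 of 14 lymphomas. A second bright Cad probe set was at -0.21 and not called. A dim one, at -0.68, was called in a fit over all probe sets (limma adjusted p = 0.00251). Cad was called in 1 of 10 alternative settings. The single Cad changes spread from -1.67 in lymphoma 7050 to 1.17 in 2949, the lymphoma in which Rrm2 fell furthest.

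Lymphoma 9584 stood apart in this group, with Rrm2, Dck, Rrm1 and Tyms at 0.42, 0.37, 0.06 and 0.86. Its Mki67 change, -0.14, was the smallest of the 14, and its Mdm2 change, 2.82, the largest. Without it 8 genes were called lower. The fibroblast list moved with the treatment, and whether its rise came from the feeder cells was not tested. A fit took each lymphoma's fibroblast list change as a covariate and was read where that is 0. This lies at the low edge of the data, since 13 of 14 list changes were above 0. The fitted changes there were -1.30 for Dut, -1.77 for Tk1, -1.17 for Rrm1 and -0.95 for Dck, and these 4 were called. Rrm2 was at -1.05 (adjusted p = 0.112), Tyms at -0.77, Rrm2b at -0.20, Umps at -0.18 and Cad, with the opposite sign, at 0.68, none of them called. This fit used the 14 WT changes alone, so precision was lower too.

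**Figure D2:**
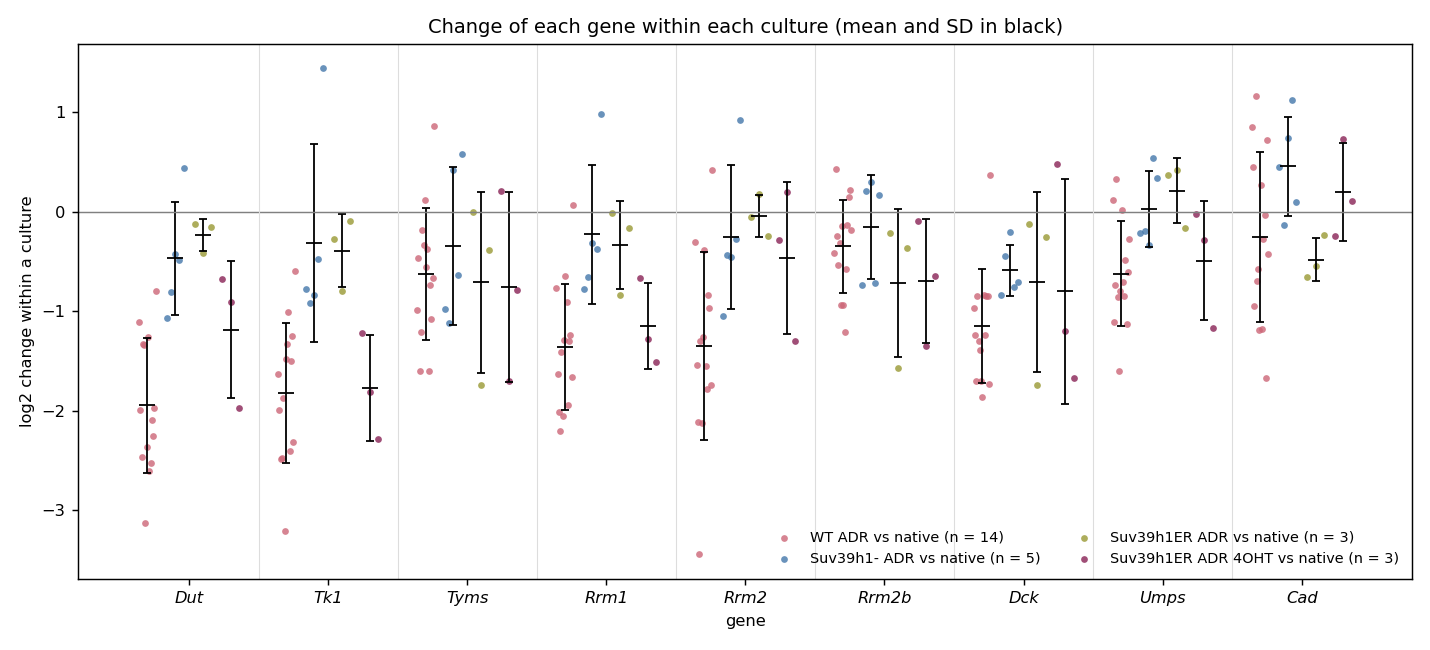
Log2 change within each culture (vertical axis) for each gene, ADR minus native in 14 WT, 5 Suv39h1- and 3 Suv39h1ER cultures, and ADR with 4OHT minus native in the same 3 Suv39h1ER cultures; points are cultures, black marks and bars the mean and SD. All WT points of Dut and Tk1 lie below 0, and the Suv39h1- point above 1 for Tk1 is lymphoma 4936, at 1.44.

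Rrm2 and Rrm2b share the large subunit and were set against each other directly. The Rrm2b change minus the Rrm2 change in WT ran from -0.61 to 2.91 with a mean of 1.01 ± 1.00 (SD, n = 14). It was above 0 in 11 of 14 lymphomas, the exceptions being 1467, 5043 and 9584. An exact two-sided sign-change test gave p = 0.0033, and adjusted p = 0.0165 over 5 such tests. Rrm2 RNA thus fell further than Rrm2b RNA in most WT lymphomas. Rrm2 was higher after ADR in lymphoma 9584 alone and Rrm2b in 1570, 7050 and 9583. Without any 1 lymphoma the mean stayed between 0.86 and 1.13, with adjusted p at most 0.033.

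The same difference was 0.10 ± 0.67 in the 5 Suv39h1- lymphomas, with single values of -0.75, -0.45, 0.32, 0.64 and 0.75 (exact p = 0.75, adjusted p = 0.938; the smallest p possible is 0.0625). The WT and Suv39h1- values differed by 0.90 (exact two-sided permutation over 11628 splits, p = 0.0829, adjusted p = 0.207). In the 3 Suv39h1ER cultures the difference was -0.68 ± 0.93 under ADR and -0.23 ± 1.16 under ADR with 4OHT (exact p = 0.25 and 1, with 0.25 the smallest possible). Rrm2b itself was at -0.15 (adjusted p = 0.859) in Suv39h1-, at -0.72 (adjusted p = 0.275) in Suv39h1ER under ADR and at -0.70 (adjusted p = 0.19) with 4OHT. On the brightest probe set its mean change from native was below 0 in each of these 4 comparisons. In Suv39h1-, however, Rrm2b was lower in 2 and higher in 3 of 5 lymphomas, with a median change of 0.17. With 4OHT against native all 4 of its probe sets were below 0. A fit over all probe sets (limma) called 1 of these, a dim one, at -1.51 (adjusted p = 0.0155). In Suv39h1- 1 of the 4 was above 0, at 0.09.

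**Figure D3:**
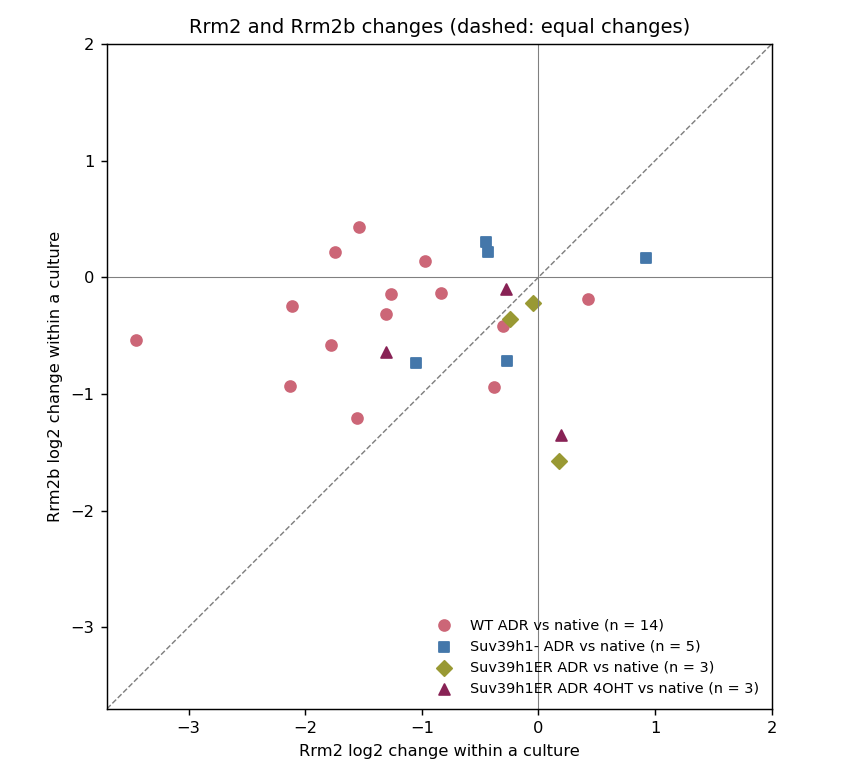
Rrm2b change (vertical axis) against Rrm2 change (horizontal axis), both log2 within a culture, for 14 WT, 5 Suv39h1- and 3 Suv39h1ER cultures, the last measured with and without 4OHT; the dashed line marks equal changes. In WT 11 of 14 points lie above the line, mostly through low Rrm2 values, and no WT point exceeds 0.43 for Rrm2b.

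Other p53 targets in the same WT arrays went up. Of 22 measured targets 16 rose and 0 fell, with a median of 0.53, against 16.1% of all genes called higher. The p53 feedback ligase Mdm2 rose by 1.26, the cell cycle inhibitor Cdkn1a (p21) by 1.11, Ccng1 (cyclin G1) by 0.89 and Phlda3, an Akt inhibitor, by 1.72. Across the 14 lymphomas no relation of the Cdkn1a and Rrm2b changes passed (Pearson r = 0.337, permutation p = 0.239, adjusted p = 0.536). Spearman rho was 0.248 (permutation p = 0.393, adjusted p = 0.593), and r was 0.0562 without 1570 and 2581. Nor did a relation of the Rrm2 and Rrm2b changes pass (r = 0.112, permutation p = 0.707, adjusted p = 0.707). Their rho was 0.209 (permutation p = 0.475, adjusted p = 0.593), and r was -0.0141 without 2949 and 9584. With 14 lymphomas a weaker relation can be missed.

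The second comparison asked whether lymphomas without Suv39h1, labelled non-senescent after ADR, show the same falls. None of the 9 genes passed (limma; 1 at an unadjusted p under 0.05), where 0.011% of all genes, 2 of 18194, were called in either direction. The median change of the 9 genes was -0.26, beside -0.04 over all genes. In simulated data of the same design 29.9% of genes with a log2 change of 0.5 were called. With a change of 1 it was 74.6%. The changed genes there, 200, were drawn from all genes, and the cut-off on p depends on how many genes change. These shares thus do not give the power for the 9 genes, whose changes ran from -0.59 to 0.46.

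Dut stood at 10.55, 10.80, 10.82, 10.12 and 9.72 in native Suv39h1- lymphomas 5783, 7890, 9250, 1032 and 4936, and at 9.48, 9.99, 10.40, 9.64 and 10.16 under ADR. It was lower in 4 of 5 and changed by -0.47 (95% interval -1.03 to 0.09, adjusted p = 0.58). Tk1 stood at 8.57, 9.47, 8.76, 8.88 and 6.73 native and at 7.79, 8.56, 7.91, 8.41 and 8.17 under ADR, with a change of -0.31 (95% interval -0.96 to 0.33, adjusted p = 0.783). Lymphoma 4936 thus had the lowest native Tk1 level and rose, whereas the other 4 fell.

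Rrm2 stood at 11.38, 11.18, 10.99, 11.30 and 9.42 native and at 10.33, 10.75, 10.54, 11.03 and 10.34 under ADR in the same order. Its change was -0.26 (95% interval -0.99 to 0.47, adjusted p = 0.857). Rrm1 changed by -0.23 (adjusted p = 0.82), also lower in all but 4936, which rose by 0.98. Dck was lower in 5 of 5 lymphomas, including 4936, with single changes from -0.84 to -0.21 and a fitted change of -0.59 (adjusted p = 0.47). Cad was higher in 4 of 5, at 0.46 (adjusted p = 0.648), and Umps was at 0.03, Tyms at -0.35.

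Lymphoma 4936 weighs on these values. Without it Dut was at -0.70, Tk1 at -0.75, Rrm1 at -0.53 and Rrm2 at -0.55, with adjusted p of 0.306, 0.263, 0.405 and 0.588. Its Mki67 change was 0.32, where the other 4 ranged from -2.03 to -0.57. The 5 ADR levels of Dck lay within 9.79 to 9.98.

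The difference between the WT and Suv39h1- responses was tested itself. All 9 differences were below 0, with a median of -0.71, beside 0.05 over all genes, and 1 of 9 was called, against 0.154% of all genes called lower. Dut differed by -1.48 (SE 0.32, adjusted p = 0.046). Tk1 differed by -1.51 (SE 0.37, adjusted p = 0.0561), Rrm1 by -1.13 (adjusted p = 0.0791) and Rrm2 by -1.10 (adjusted p = 0.164), which did not pass. Umps, Cad and Dck were at -0.65, -0.71 and -0.56, Tyms at -0.28 and Rrm2b at -0.19.

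The Dut call was close to the threshold. It held in 4 of 9 alternative settings and in 6 of 19 fits that left out 1 lymphoma, with values from -1.63 to -1.25. Without Suv39h1- 4936 it was -1.25 (adjusted p = 0.134), and Tk1, Rrm1 and Rrm2 were -1.07, -0.83 and -0.80. The fits without WT 1570, 2581, 3594, 3769, 403, 5560, 5766, 6054 or 7050, or without Suv39h1- 7890, 9250 or 1032, lost the call as well. Without WT 9584 instead 3 of the 9 genes were called.

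Between genotypes the native levels of the 9 genes did not separate on the brightest probe sets. None was called in native WT against native Suv39h1- lymphomas (limma; 0 at an unadjusted p under 0.05), where 1.09% of all genes were called in either direction. The differences ran from -0.09 for Dut to 0.40 for Tk1, with 95% intervals of -0.45 to 0.26 and -0.24 to 1.04. A fit over all probe sets (limma) called 1 dimmer Dck probe set, at 0.77 (adjusted p = 0.0213). The other 2 Dck probe sets were at -0.07 and -0.22. A second Rrm1 probe set was at 0.82 (adjusted p = 0.0607) and was not called there. In the limma fit on the most variable probe set of each gene it was called (adjusted p = 0.0449). Other Cad probe sets were at 0.70 and 0.54 and other Rrm2 probe sets at 0.17 and 0.60, none of them called.

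Under ADR 4 of 9 genes were lower in WT than in Suv39h1- lymphomas, where 6.3% of all genes were lower and 6.3% higher. The levels of Dut, from 7.29 to 9.04 in WT and from 9.48 to 10.40 in Suv39h1-, did not overlap. Dut differed by -1.57 (SE 0.25, adjusted p = 6.98e-04), a call that held in all 7 alternatives and all 19 fits without 1 lymphoma. Tk1 differed by -1.11 (adjusted p = 0.0175), Rrm1 by -0.98 (adjusted p = 0.0107) and Umps by -0.58 (adjusted p = 0.0114). Without Suv39h1- 7890 Tk1 was at -1.01 (adjusted p = 0.0561), Umps was at -0.52 (adjusted p = 0.0594) with alike lymphomas averaged, and Rrm1 at -0.48 (adjusted p = 0.297) on its most variable probe set.

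The other 5 genes did not pass on their brightest probe sets. Rrm2 was at -0.82 (95% interval -1.53 to -0.11), Cad at -0.70, Dck at -0.64, Rrm2b at -0.18 and Tyms at -0.03. A fit over all probe sets (limma) called 1 other Dck probe set, at -0.81 (adjusted p = 0.034). It also called 1 dim Rrm2b probe set, at -0.71 (adjusted p = 0.00816), while 1 of the 4 was above 0, at 0.07. The 2 other Cad probe sets had the opposite sign, at 0.15 and 0.33. These ADR arrays also enter the response comparisons, so the values are not independent of them. The fibroblast list had a median level of 6.5 in WT ADR and 4.55 in Suv39h1- ADR cultures, and the part of this in the differences between the genotypes was not tested.

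In the 3 Suv39h1ER cultures the enzymes were compared without and with 4OHT. Under ADR alone none of the 9 genes passed (limma; 1 at an unadjusted p under 0.05), against 0.126% of all genes. Tk1 stood at 8.79, 8.93 and 8.99 in native cultures SuvER-4146, SuvER-4936 and SuvER-5043, at 8.51, 8.13 and 8.89 under ADR, and at 7.56, 7.11 and 6.70 under ADR with 4OHT. All 3 levels with 4OHT were below all 6 others. For this and the other groups said not to overlap, the share over all genes is not given here. Against native Tk1 changed by -0.39 (adjusted p = 0.776) under ADR and by -1.78 (SE 0.40, adjusted p = 0.0177) under ADR with 4OHT. This was the 1 call among the 9 genes, where 1.57% of all genes were lower. Without culture 4936 it was -1.75 (adjusted p = 0.132) and without 5043 -1.52 (adjusted p = 0.158), and with only the Suv39h1ER arrays in the fit adjusted p = 0.121.

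Dut stood at 10.40, 10.26 and 10.64 native, at 10.27, 9.84 and 10.49 under ADR and at 9.72, 9.35 and 8.67 under ADR with 4OHT. Its levels with 4OHT were again below all others, with a change from native of -1.19 (adjusted p = 0.069). Rrm1 stood at 10.18, 10.54 and 10.45 native, at 10.17, 9.70 and 10.29 under ADR and at 9.52, 9.26 and 8.94 with 4OHT. The order of the groups was the same as for Dut, and the change from native was -1.15 (adjusted p = 0.0668). Rrm2 was at -0.46 (95% interval -1.41 to 0.48) and stood at 0.20 in culture 4936. Its other probe sets were at -0.64 and -1.03, the latter lower in 3 of 3 cultures, and were not called. Dck was at -0.80 with single changes of 0.47, -1.20 and -1.68, Tyms at -0.76, Umps at -0.49 and Cad at 0.20. Other Dck probe sets were at -0.45 and -1.56. A fit over all probe sets (limma) called the latter (adjusted p = 0.0242), which was lower in 3 of 3 cultures.

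The effect of 4OHT itself, ADR with 4OHT against ADR alone, passed for none of the 9 genes (limma; 4 at an unadjusted p under 0.05), against 0.143% of all genes. Tk1 differed by -1.38 (adjusted p = 0.152), Dut by -0.96 (adjusted p = 0.249), Rrm1 by -0.81 (adjusted p = 0.315) and Umps by -0.70 (adjusted p = 0.271), each lower in 3 of 3 cultures. Cad was higher in 3 of 3, at 0.68 (adjusted p = 0.523). Culture 5043 had the lowest 4OHT values of Tk1, Dut, Rrm1, Rrm2, Rrm2b, Dck, Tyms and Umps. From ADR to ADR with 4OHT the fibroblast list was lower in 3 of 3 cultures, with a mean change of -0.78, whose part in these values was not tested. These comparisons share the native or the ADR arrays.

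The lists of related genes in WT are read against the 14.1% of all genes called lower and 16.1% called higher. Of 9 other genes of pyrimidine ribonucleotide synthesis 1 fell and 1 rose, near those shares, with a median of -0.06. Dhodh, the mitochondrial enzyme between Cad and Umps, fell by 0.81, and Ctps2, a CTP synthase, rose by 0.50. Ctps and Uck1 were at -0.24 and -0.17 and not called. Purine synthesis had 8 of 12 genes lower and 0 higher, with a median of -0.43. Prps1, which makes the phosphoribosyl donor, fell by 1.03, Ppat, the first committed enzyme, by 0.83, Paics by 0.63 and Gmps by 0.57.

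Among 16 other enzymes of deoxynucleotide handling 5 fell and 5 rose, with a median of -0.02. Dctpp1, which clears modified dCTP, fell by 1.06, Dtymk, which phosphorylates dTMP, by 0.91 and the nucleoside transporter Slc29a1 by 0.58. Cda, which deaminates cytidine, rose by 0.93. Of 9 folate cycle genes, which feed Tyms and purine synthesis, 7 fell and 1 rose, with a median of -0.49. The serine hydroxymethyltransferases Shmt1 and Shmt2 fell by 1.11 and 0.91 and Mthfd2 by 0.49, while Ggh, which trims folate polyglutamates, rose by 0.64.

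The E2F regulators fell in 8 of 13 genes and rose in 0, with a median of -0.53, among them E2f8 by 1.95, E2f7 by 1.59, Rbl1 (p107) by 1.34 and Tfdp2 by 1.32. The replication list fell in 25 of 25 genes, with a median of -1.29, among them Pola1 by 1.99, Gins1 by 1.77, Rfc4 by 1.66 and Mcm6 by 1.23. Myc, which drives these lymphomas, fell by 0.78, Bcl2 by 0.93 and the proliferation marker Mki67 by 2.31. In Suv39h1- none of these listed genes was called, where 0.011% of all genes, 2 of 18194, were called in either direction. In the test of the WT against the Suv39h1- response Prps1 was the 1 enzyme called beside Dut, at -1.0 (adjusted p = 0.046).

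**Figure D4:**
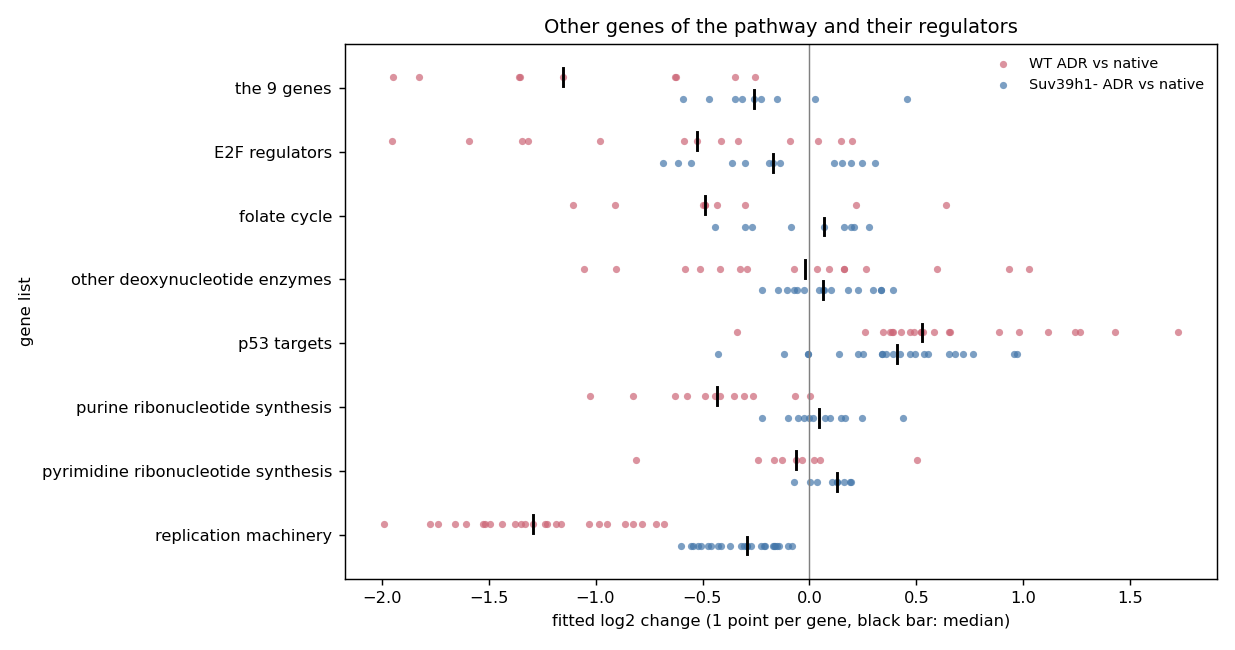
Fitted log2 change after ADR (horizontal axis) of each gene in the 9 described and in 7 related lists (vertical axis), for WT and Suv39h1- lymphomas; 1 point per gene, black bars are medians. In WT the 9 genes have a median of -1.15, near the replication list at -1.29, while pyrimidine ribonucleotide synthesis is at -0.06.

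Under ADR in WT against Suv39h1-, where 6.3% of all genes were lower and 6.3% higher, 1 of 9 pyrimidine genes, 6 of 12 purine genes, 5 of 16 other deoxynucleotide enzymes, 2 of 9 folate genes and 16 of 25 replication genes were lower. Of the 16 other deoxynucleotide enzymes 1, Slc29a1, was higher, and of the 13 E2F regulators 2 were lower and 2 higher. Under ADR with 4OHT against native in Suv39h1ER, where 1.57% of all genes were lower, Gmps fell by 0.72, Rbl1 by 1.43 and 5 of 25 replication genes were called lower, among them Gins1 at -1.69 and the clamp protein Pcna at -1.09.

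Over the 25 treated minus native changes of all cultures, the genes whose changes were most like those of Rrm2 were Clspn, a checkpoint adaptor (Pearson r = 0.944), Birc5 (survivin, r = 0.938) and Pclaf, a PCNA partner (r = 0.936). Of the 8 other enzymes Rrm1 came closest to Rrm2 (r = 0.862, 56th of all genes), then Tk1 (r = 0.779) and Dut (r = 0.734). Cad (r = 0.0211) and Rrm2b (r = -0.00375) had the lowest values. The genes most like Rrm2b were Acyp1 (r = 0.821), Tubb2b (r = 0.82) and Fcho1 (r = 0.818). These 25 values come from 22 cultures, since the Suv39h1ER cultures enter with 2 treatments that share a native array, and they describe these arrays only.

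In the 14 WT lymphomas the Rrm2 change followed that of Mki67. Over 5 relations computed, this one gave Pearson r = 0.889, with permutation p = 1.40e-04 and adjusted p = 7.00e-04. Spearman rho was 0.82, with permutation p = 6.90e-04 and adjusted p = 0.00345. Without lymphomas 2949 and 9584, the farthest from the median Mki67 change, r was 0.712. The fibroblast list change gave no relation that passed. With Rrm2 it gave r = -0.232 (permutation p = 0.429, adjusted p = 0.536) and rho = -0.354 (permutation p = 0.216, adjusted p = 0.539). Without 403 and 5560 this r was -0.311. With Rrm2b it gave r = -0.232 (permutation p = 0.425, adjusted p = 0.536) and rho = -0.0989 (permutation p = 0.739, adjusted p = 0.739). Without the same 2 this r was -0.0592.

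**Figure D5:**
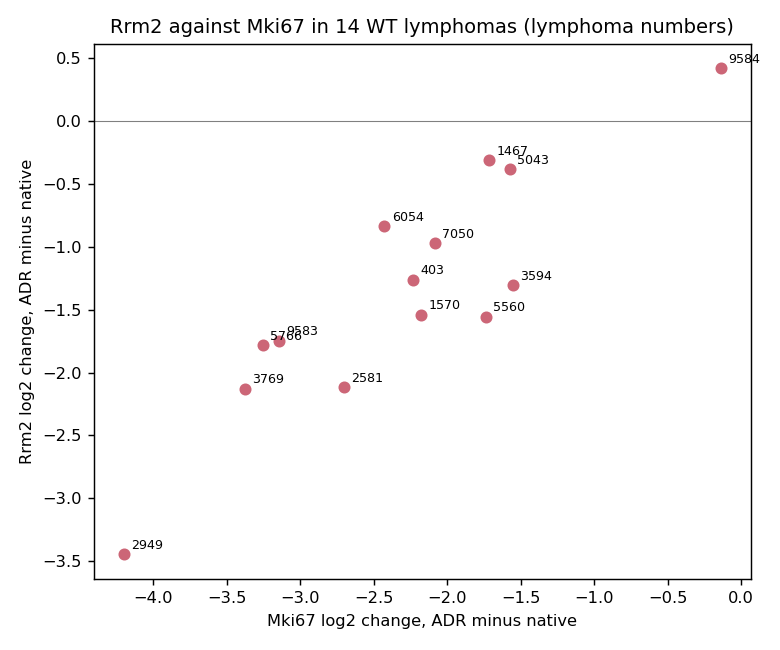
Rrm2 change (vertical axis) against Mki67 change (horizontal axis), both log2, ADR minus native, in the 14 WT lymphomas, each labelled by its number. Lymphoma 2949 lies lowest on both axes, at -4.20 and -3.45, and 9584 highest, at -0.14 and 0.42.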

How the data were processed

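The samples were hybridised to Affymetrix arrays from 3 µg of total RNA, per the labels' protocols. Per the submitters' processing notes, RMA and oligo were run in R 3.5.0. The authors deposited 1 log2 level for each probe set and array. Whether all arrays were normalized in a single run is unknown here, and scan batches and detection calls were not analysed. Of 45101 probe sets 34958 carry 1 gene symbol, 932 several and 9211 are unnamed here. Symbols were checked through Entrez numbers for 34754.

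Changes were tested with limma 3.58.1 (lmFit, eBayes) in R 4.3.3, and files were read with data.table (version 1.17.8). The fit held all 47 arrays, a fixed block for each of the 22 cultures and 4 treatment terms, and genotypes were compared over 19 arrays each without a block. The pairing comes from the series design, which speaks of matched native and treated lymphomas: deviations of paired arrays correlated above 0.1 in 10 of 14 WT, 5 of 5 Suv39h1- and, for Suv39h1ER, 1 of 3 pairs under ADR and 0 of 3 with 4OHT against native. P-values were two-sided and adjusted over 18194 genes, and called means adjusted p under 0.05. Relations used 100000 permutations. In a fit on simulated data, log2 changes of 1 were recovered for 98.5% of genes in WT and 67.2% in Suv39h1ER under ADR.

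The 9 genes and all gene lists were chosen with earlier results of these data known. Named list genes are up to 4 per list with the smallest p in WT, plus the 3 genes most correlated with Rrm2 and with Rrm2b, and Mki67, Cdkn1a, Mdm2, Myc and Bcl2; genes named for other comparisons were chosen after their values were seen. Replicates carry separate lymphoma numbers. The number 5043 stands in WT and Suv39h1ER and 4936 in Suv39h1- and Suv39h1ER; these were counted as separate cultures, and whether they share a lymphoma is not settled by the labels. Arrays of WT 2949, 5043, 5766 and 6054, and of Suv39h1- 7890 and 9250, resemble each other, so an alternative averages each set, leaving 11 and 4. Alternatives changed the probe set rule, a filter, the normalization, the block, the arrays, the prior and a fibroblast covariate, and left out each culture. The number of arrays limits the precision, and the Suv39h1 gene was not analysed here as a check of the genotypes.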

Additional observations from a re-analysis of the deposited data

Results flagged for a closer look

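Lymphoma 4936 of the Suv39h1- group stood far from the other 4 in 3 of 28 checks on groups of 4 to 10 samples. Its Tk1 change after ADR was 1.44, where the next highest was -0.47. Its Rrm1 change was 0.98, where the next highest was -0.32. Its native Rrm2 level was 9.42, where the next lowest was 10.99. Chance marks about 1 in 20 such groups, and the 3 checks share arrays of 1 lymphoma. Its Mki67 change was 0.32.

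The Dut response differed between genotypes by -1.48 (WT minus Suv39h1-, limma adjusted p = 0.046), a direct test of the difference. The call held in 4 of 9 alternative settings and in 6 of 19 fits without 1 lymphoma, and without Suv39h1- 4936 the difference was -1.25 (adjusted p = 0.134).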

How the results depend on the processing

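In WT the falls of Dut, Tk1, Rrm1 and Dck kept their direction and their side of the threshold under all 10 alternatives and all 14 fits without 1 lymphoma; with the fibroblast covariate 4 of the 9 genes and 2116 genes in all were called, and Cad was at 0.68. That fit tests a fibroblast list change of 0, at lower precision. In Suv39h1- it called 0 genes, with Rrm2 at 0.012, Rrm2b at 0.23 and Umps at -0.045. For the other reversals and changed counts the cause was not tested.

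The pairing entered as a block. With no replicate block 11 genes were called in Suv39h1-, 13 in the difference of the responses, 2 in Suv39h1ER under ADR, 267 with 4OHT and 16 for 4OHT against ADR; it changed no count of the 9 genes by over 1.5 times. In the main fit these counts were 2, 62, 23, 537 and 26.

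For the difference of the responses, 0 of the 9 genes were called with the mean of all probe sets, the most variable probe set (27 genes in all), the groups compared alone (40), the trended prior (28) and alike lymphomas averaged (0), and 2 with the filter on dim genes (110) and with centred arrays (152). In Suv39h1- the count of genes was 5 with the most variable probe set, 12 with the trended prior, 1 with alike lymphomas averaged, and 0 with the filter and with the groups compared alone.

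For Suv39h1ER under ADR it was 57 with the most variable probe set, 35 with quantile normalization and 1 with the groups compared alone. With 4OHT against native the latter gave 0 genes and 0 of the 9, against 2 of the 9 with the most variable probe set and 3 with the filter. For 4OHT against ADR it was 41 with the filter, 7 with the trended prior, 11 with alike lymphomas averaged and 0 with the groups compared alone. The native genotypes gave 660 genes and 2 of the 9 higher, Rrm1 and Dck, with the most variable probe set. The ADR genotypes gave 939 with alike lymphomas averaged.

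These other signs turned. With the mean of all probe sets and the most variable probe set, in this order, Umps with 4OHT against native was at 0.030 and 0.59, Rrm2b for 4OHT against ADR at -0.22 and -0.088, and in native genotypes Rrm2b at -0.12 and -0.38, Dck at 0.16 and 0.77 and Umps at -0.012 and -0.11. The native Dut difference was at 0.035 with the former. Quantile normalization gave -0.00161 for native Rrm2b, and centred arrays -0.0096 for native Cad and -0.015 for Rrm2b (4OHT against ADR). With alike lymphomas averaged native Dut was at 0.021, native Rrm2b at -0.069, Tyms under ADR between genotypes at 0.030 and the Rrm2b minus Rrm2 change in Suv39h1- at -0.045.

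Without 1 culture at a time, the counts of genes ran from 0 to 258 for the difference of the responses (0 to 3 of the 9), from 0 to 12 in Suv39h1-, from 1227 to 3389 and from 138 to 316 for ADR and native genotypes, from 4 to 109 in Suv39h1ER under ADR, from 90 to 326 with 4OHT (0 to 1 of the 9) and from 1 to 56 for 4OHT against ADR. Native differences ran from -0.24 to 0.13 for Cad, -0.16 to 0.18 for Rrm2b, -0.16 to 0.015 for Dck, -0.27 to 0.010 for Dut, -0.084 to 0.22 for Umps, -0.034 to 0.65 for Tk1, -0.10 to 0.26 for Rrm1 and -0.080 to 0.41 for Rrm2. Tyms under ADR between genotypes ran from -0.093 to 0.051, Umps in Suv39h1- from -0.10 to 0.12, and the Rrm2b minus Rrm2 change from -0.059 to 0.32 in Suv39h1- and from -0.68 to 0.42 with 4OHT. For 4OHT against ADR Rrm2b ran from -0.081 to 0.17, Tyms from -0.18 to 0.13 and Dck from -0.44 to 0.57. Cad with 4OHT against native ran from -0.069 to 0.42, and Rrm2 under ADR alone from -0.15 to 0.062.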

Other observations

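The brightest probe set that reads thymidylate synthase names both Tyms and its pseudogene Tyms-ps in the platform annotation and was therefore not counted as Tyms. Its level was 7.96 ± 0.55 (SD, n = 14) in native WT and 7.13 ± 0.61 (n = 14) in WT ADR cultures. It was lower in 12 of 14 WT lymphomas, with a change of -0.83 (limma adjusted p = 0.00157 over all probe sets). In Suv39h1- it was 8.02 ± 0.96 native and 7.81 ± 0.33 under ADR (n = 5), a change of -0.21 (adjusted p = 0.856). In Suv39h1ER it was 7.98 ± 0.56 native, 8.39 ± 0.27 under ADR and 6.89 ± 0.42 with 4OHT (n = 3). The 4OHT value was below that under ADR in 3 of 3 cultures, by 1.5 on average (adjusted p = 0.074). Which of the 2 genes gave this signal was not tested.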
